A study of Mus musculus with 43 samples.

Results

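CD8+ T cells recovered from the lungs of tumour-bearing mice given control IgG were compared with the same pool of cells before transfer (T0). The comparison was defined by sample, with 3 lung IgG libraries and 3 T0 libraries, which were 6 of the 41 libraries with values in a pooled CRISPR knockout screen of 2078 metabolic genes. Each gene was targeted by 5 single guide RNAs (sgRNAs), and 250 nontargeting sgRNAs brought the library to 10640. The same screen sampled primary tumour, peritoneal metastases, liver, spleen and lymph nodes, each under IgG or anti-PD-1.

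The T cells came from OT-I:Rosa26-Cas9 mice on the C57BL/6J background, which carry Cas9 in every cell and a T cell receptor that recognizes a peptide of ovalbumin. They were activated through CD3 and CD28, transduced with a lentivirus that carried the sgRNAs and a CD90.1 reporter, and enriched for CD90.1 with magnetic beads 4 days after transduction. An aliquot frozen at that step was T0 (day 0). The remaining cells went by adoptive transfer into Rosa26-Cas9 recipients of either sex, 6 to 12 weeks old and with an intact immune system, which had received KPC_OVA cells in the head of the pancreas 5 days earlier. KPC_OVA is a mouse pancreatic cancer line that makes ovalbumin. The lung IgG group then received rat IgG at 10 mg/kg every 2 days, and CD90.1+ OT-I cells were sorted from lung on day 7. All groups thus shared Cas9, the receptor, the library and, apart from T0, the tumour. The number of mice behind each library is not given in the labels, so the spread between libraries may be partly technical. Because sgRNAs were read from genomic DNA, the identity of the sorted cells could not be checked against marker genes.

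In such a screen the sgRNA marks the gene that a cell and its progeny have lost. An sgRNA that becomes rare marks cells that divided, survived or reached the organ less than the rest, and these possibilities cannot be told apart. Activated CD8+ T cells divide quickly after transfer, which calls for ribosomes, nucleotides, membrane lipids and mitochondrial respiration, while phosphoinositide 3-kinase (PI3K) and diacylglycerol signals pass on the signal of the T cell receptor.

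Genes of ribosomes, transcription, nucleotide synthesis, respiration and early glycan assembly were depleted in lung, and no gene passed the test in the other direction. Of 2078 genes, 375 (18%) were depleted in lung IgG relative to T0 and 0 (0%) were enriched, at an adjusted p of at most 0.05 by limma with Benjamini-Hochberg adjustment. At an unadjusted p under 0.05, 602 genes were lower and 1 was higher. The value of a gene in a library, called its level here, was the mean of log2(signal + 1) over its 5 sgRNAs minus the median of the nontargeting sgRNAs, and its change was the mean level in lung IgG minus that in T0. The 375 changes ran from -7.42 to -2.35 with a median of -4.69. All 5 sgRNAs were lower in 328 of these genes and 4 of 5 in the other 47. In 373 of the 375 every lung library lay below every T0 library, which was also true of 1134 of all 2078 genes (54.6%), or of 514 (24.7%) with the centring on the nontargeting mean described below.

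With the nontargeting median as the centre, 1955 of 2078 genes had a change below 0, and with the nontargeting mean 1216 did. Before centring, the nontargeting sgRNAs lay lower in lung too. Many sgRNAs sat at the lowest value that the table holds for them, a value shared with other libraries of the same replicate number. In T0 at most 0.0188% of all sgRNAs lay there. In lung IgG the share of gene-targeting sgRNAs was 42.7% in replicate 1, 28.1% in replicate 2 and 11.5% in replicate 3. Among nontargeting sgRNAs it was 38.4%, 23.6% and 8% in the same libraries, so sgRNAs with no target went missing nearly as often. No sgRNA count or sequencing depth is in the table, so how far few cells or few reads set this share was not tested. The signal was also concentrated: the top 1% of sgRNAs held 15%, 10.6% and 15.6% of the signal of the lung IgG libraries, against 3.71% to 3.86% in T0.

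**Figure D1:**
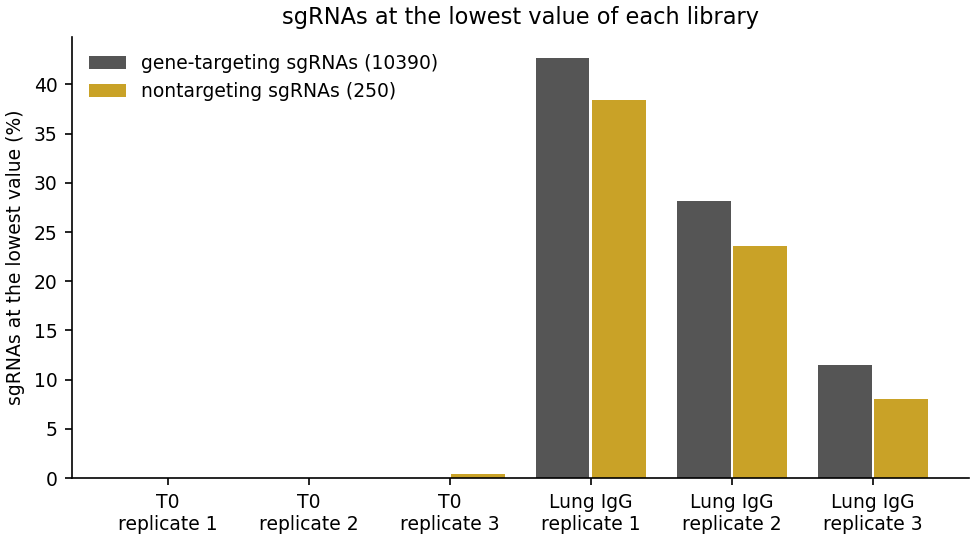
Share of sgRNAs at the lowest value (y axis, percent) in each T0 and lung IgG library, with gene-targeting sgRNAs in grey and nontargeting sgRNAs in yellow. Lung IgG libraries held between 11.5% and 42.7% of gene-targeting sgRNAs there, and nontargeting sgRNAs followed them at 8% to 38.4%.

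Before centring, the median of the nontargeting sgRNAs was lower in lung IgG than in T0 at each replicate number, and their mean fell further than their median. How far the missing values lowered either was not tested. The mean of the nontargeting sgRNAs, taken in the same way as a gene, changed by -1.19 between T0 and lung, while all genes together had a median of -1.42. The test asks whether a change differs from 0, so this general fall counts towards every depleted call. The size of a change is therefore set here beside -1.42, while its adjusted p refers to 0. With the nontargeting mean as the centre, which carries the missing values on both sides, the median of all genes moved to -0.24, and 280 genes (13.5%) were depleted and 4 (0.192%) enriched. All 280 were among the 375. Of these, 212 also remained depleted under both centrings with each of the 6 libraries left out in turn. When values at the lowest were left out of the gene means, 0 genes were depleted by limma (60 lower at an unadjusted p under 0.05), and 8 genes had no value left to test. Since depletion itself takes sgRNAs to the lowest value, this setting leaves out part of what it measures. With it the median change was -1.27 for the 375 genes against -0.35 for all genes. Before such values were left out, 63.4% of the lung sgRNA values of the depleted genes lay at the lowest value, against 19.5% for the other genes and 23.3% for nontargeting sgRNAs. At T0 the median level was 0.08 for the depleted genes and 0.24 for the others.

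**Figure D2:**
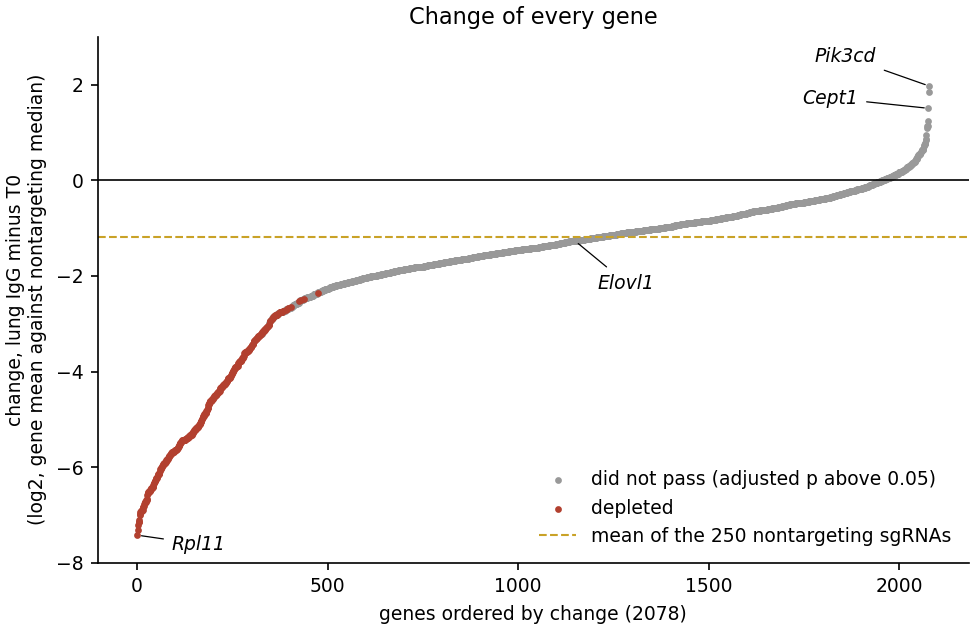
Change of each of the 2078 genes (y axis, log2, lung IgG minus T0), ordered from lowest to highest on the x axis, with depleted genes in red and genes that did not pass in grey. The dashed line marks the mean of the 250 nontargeting sgRNAs at -1.19, and *Pik3cd*, at 1.97, had the highest change of all without passing the test.

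Genes that make proteins were lost most completely. The gene lists used from here on were chosen with earlier results of these data known, so their shares are a description and not an independent test. All 19 ribosomal proteins of the cytosol were depleted, against 18% of all genes, with a median change of -6.44 against -1.42 for all genes, and all 19 passed with the nontargeting mean as well. *Rpl11*, a protein of the large ribosomal subunit, had levels of -0.10, 0.36 and 1.07 in T0 and of -7.06, -7.17 and -6.70 in lung IgG. The groups were far apart, with a change of -7.42 ± 0.83 (limma SE, 3 libraries per group, adjusted p = 3.9e-09). All 15 of its sgRNA values in lung lay at the lowest value, so the change is limited by that value. Each ± in the text is the standard error of the limma fit, whose spread was estimated over all 41 libraries, lymph nodes included. It is not the scatter of the lung IgG and T0 libraries alone. *Rpl27* was likewise at the lowest value in all 15 (change -7.32). *Rpl9* changed by -6.52 ± 0.79, with 14 of 15 values at the lowest. *Rps24*, of the small subunit, had the smallest decrease of the 19, -4.52, and 9 of 15 values at the lowest. Over the whole list 83.2% of the lung sgRNA values lay there. The T0 libraries were not alike for this list, with a median level of 0.97 in replicate 3 against -0.30 and -0.02 in replicates 1 and 2, and their part in the changes was not tested.

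RNA polymerases I, II and III, which transcribe ribosomal, messenger and transfer RNA, lost 26 of 28 measured subunits (25 with the nontargeting mean), with a median change of -5.47. *Polr1d*, shared by polymerases I and III, stood at -0.08, -0.05 and 0.63 in T0 and at -5.83, -7.32 and -6.38 in lung IgG. Its groups did not overlap, and its change was -6.68 ± 0.88 (adjusted p = 4.3e-08). *Polr1b*, of polymerase I, changed by -7.01. The 2 subunits that did not pass were *Polr3g*, at -1.81, and *Polr3gl*, at -1.63, which are alternative forms of the same polymerase III subunit. All 10 proteasome subunits, which degrade tagged proteins, were depleted with a median of -5.48, led by *Psmc4* (-6.72) and *Psmb3* (-6.41), and the smallest decrease was that of *Psmd1* (-3.73). None of 4 subunits of the COP9 signalosome passed, with a median of -2.25. Both cytosolic tRNA synthetases in the library were depleted, *Mars* (-6.47) and *Eprs* (-5.21), as were the mitochondrial synthetases *Ears2* (-6.14) and *Mars2* (-5.22).

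**Figure D3:**
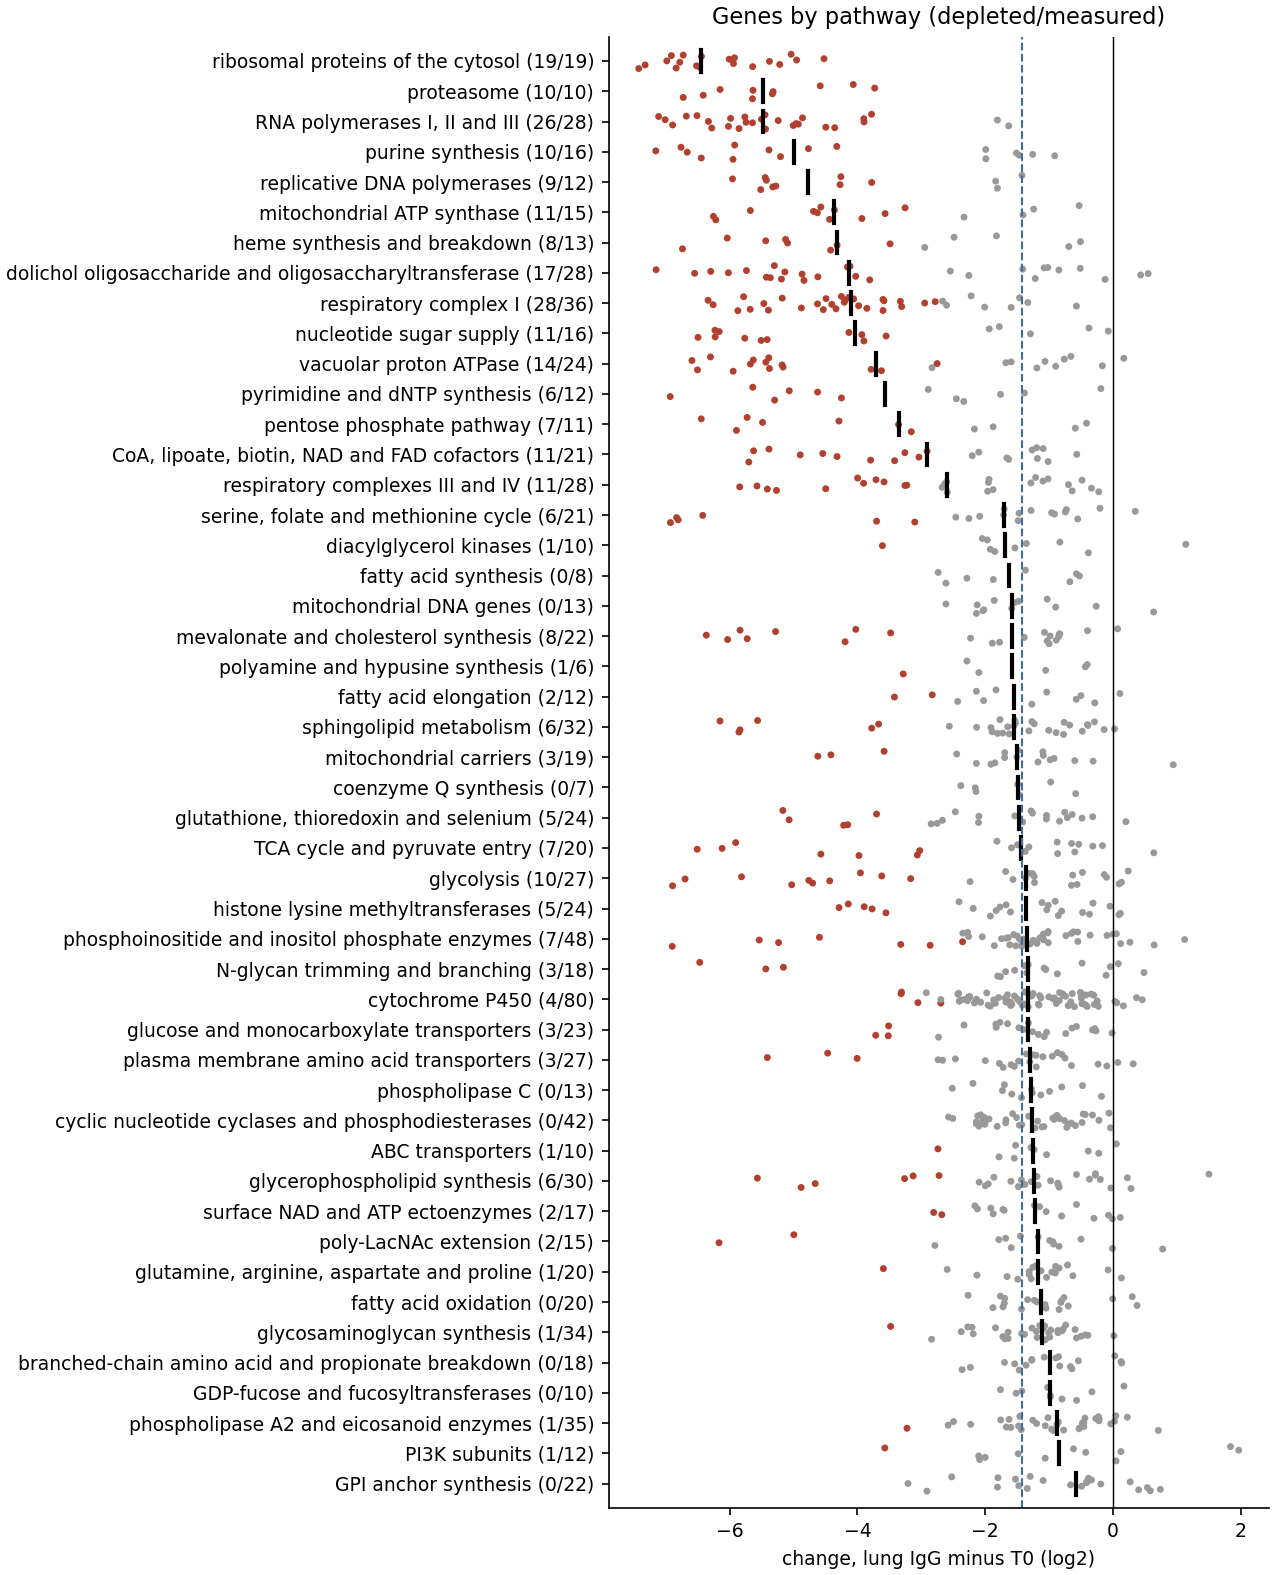
Change of every member (points, x axis, log2, lung IgG minus T0) of the gene lists with 6 or more measured genes, with depleted genes in red, list medians as black bars and the number depleted over the number measured beside each name. The dashed line is the median of all genes at -1.42, and the lists with the lowest medians are ribosomal proteins, proteasome and RNA polymerases.

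Nucleotide genes were depleted in both the purine and the pyrimidine list. In purine synthesis 10 of 16 genes were depleted under either centring, with a median change of -4.98. *Paics*, which carries out successive middle steps of the route, fell from -0.37, -0.12 and 0.85 in T0 to -7.11, -7.29 and -6.70 in lung IgG. All 15 of its lung values were at the lowest, and the change was -7.15 ± 0.88 (adjusted p = 1.29e-08). *Ppat*, the committed enzyme of the route, changed by -6.76. The 6 that did not pass were the phosphoribosyl pyrophosphate synthetases *Prps1*, *Prps2*, *Prps1l1* and *Prps1l3*, and *Impdh1* and *Adssl1*, while *Impdh2* (-5.92) and *Adss* (-5.38), of the same enzyme activities, were depleted.

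Pyrimidine and deoxynucleotide genes were depleted in 6 of 12 cases, with a median of -3.57. *Rrm1* and *Rrm2*, the subunits of ribonucleotide reductase, changed by -6.93 and -5.64. *Rrm1* stood at -0.23, -0.14 and 0.91 in T0 and at -7.02, -7.31 and -5.91 in lung, with no overlap. The de novo pyrimidine enzymes *Cad*, at -2.33 ± 1.45, and *Dhodh*, at -1.76 ± 1.08, did not pass. Of 12 replicative DNA polymerase and primase genes, 9 were depleted under either centring, led by *Pole* (-5.95) and *Pola1* (-5.51), with a list median of -4.77. In the serine, folate and methionine cycle 6 of 21 were depleted (4 with the nontargeting mean) and the median, -1.70, lay near that of all genes. The members that fell furthest were *Ahcy* (-6.93), which clears S-adenosylhomocysteine, and *Mat2a* (-6.83), which makes S-adenosylmethionine. *Shmt1*, the cytosolic serine hydroxymethyltransferase, had the highest change of that list, 0.35 ± 1.07, and did not pass.

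Subunits of the respiratory chain encoded in the nucleus were depleted in each list of the chain. In complex I, which oxidizes NADH, 28 of 36 genes were depleted (24 with the nontargeting mean), with a median of -4.09. *Ndufs3*, a core subunit, had levels of -0.13, 0.16 and 0.64 in T0 and of -6.74, -7.04 and -4.56 in lung IgG. The change was -6.34 ± 0.94 (adjusted p = 5.06e-07), and lung replicate 3 was the highest of the 3. *Ndufv1*, another core subunit, changed by -6.26. Within replicate numbers 1, 2 and 3, the median difference between lung and T0 over the 375 depleted genes was -5.19, -5.09 and -4.09, and over all other genes it was -1.91, -0.96 and -0.49.

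All 4 subunits of complex II, succinate dehydrogenase, were depleted, with *Sdha* at -6.92 and *Sdhb* at -6.54. The call for *Sdhd* (-3.44) was lost with the nontargeting mean (adjusted p = 0.0883) and with the lowest 10% of sgRNAs left out (0.0873). Complexes III and IV, the cytochrome complexes, had 11 of 28 depleted (8 with the nontargeting mean) and a median of -2.60, led by *Uqcr10* (-5.84) and *Cox7b* (-5.57). The mitochondrial ATP synthase had 11 of 15 depleted (9 with the nontargeting mean), with a median of -4.36, and *Atp5c1* (-6.25) and *Atp5a1* (-6.21), subunits of its catalytic head, at the bottom. None of the 13 genes encoded by mitochondrial DNA passed. Their median, -1.58, was close to that of all genes, 22.6% of their sgRNA values lay at the lowest value against 23.3% of nontargeting values, and *CYTB* had the highest change of the 13, 0.64 ± 1.26. *Cycs*, cytochrome c, which was named after its value was seen, changed by -4.80.

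Upstream of the chain, 7 of 20 genes of the tricarboxylic acid cycle and pyruvate entry were depleted (5 with the nontargeting mean), and the list median was -1.43. *Ogdh* (-6.51) and *Dlst* (-6.12) encode components of the 2-oxoglutarate dehydrogenase complex. *Mdh2*, mitochondrial malate dehydrogenase, was at 0.64 ± 1.05 and did not pass. In glycolysis 10 of 27 were depleted (9 with the nontargeting mean) and 17 did not pass. The depleted genes were *Aldoa*, *Pkm*, *Pgk1*, *Tpi1*, *Pgam1*, *Gpi1*, *Gapdh*, *Eno1*, *Ldha* and *Eno1b*, while *Aldoc*, *Pgk2*, *Pgam2*, *Eno2*, *Eno3*, *Pklr*, *Ldhb*, *Ldhc* and the hexokinases *Hk1*, *Hk2* and *Hk3* did not pass. The call for *Eno1b* was lost with the nontargeting mean (adjusted p = 0.132) and without each library (adjusted p of up to 0.245) except lung IgG replicate 3, that for *Eno1* without lung IgG replicate 2 (0.0949) and with the median over sgRNAs (0.462), and that for *Ldha* without lung IgG replicate 1 (0.0684). *Pkm*, pyruvate kinase of most tissues, fell from 0.20, -0.15 and 0.40 in T0 to -6.68, -7.19 and -5.77 in lung IgG. This was a change of -6.70 ± 1.16 (adjusted p = 7.69e-06), next to *Aldoa* at -6.89. The sgRNAs listed under *Gapdh-ps15*, a pseudogene of *Gapdh*, were at the lowest value in all 15 cases (change -7.20) and those listed under *Gapdh* in 8 (-4.43). Their sequences are not in the table, so which copy each set cuts cannot be told.

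The pentose phosphate pathway supplies NADPH and ribose. In its list 7 of 11 genes were depleted (5 with the nontargeting mean), with a median of -3.35, led by *Pgd* (-6.44) and *Rpe* (-5.89). Among carriers, the glucose transporter *Slc2a1* was depleted at -3.52 ± 0.92 (adjusted p = 0.00293). That call was lost with the nontargeting mean (adjusted p = 0.0692) and without lung IgG replicate 1 (adjusted p = 0.0677). Of 27 plasma membrane amino acid transporters, 3 were depleted under either centring: *Slc3a2* (-5.41) and *Slc7a5* (-4.003), which pair into a carrier of large neutral amino acids, and *Slc38a1* (-4.46), which carries glutamine. In glutamine, arginine, aspartate and proline metabolism 1 of 20 genes was depleted, and the list median was -1.17. Of 19 mitochondrial carriers 3 were depleted (2 with the nontargeting mean), among them *Slc25a26* (-4.41, adjusted p = 0.058 with the median over sgRNAs), for S-adenosylmethionine. *Slc25a1*, the citrate carrier, had the highest change of the carriers, 0.94 ± 0.92.

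Cofactor genes were depleted in several branches. In heme synthesis and breakdown 8 of 13 were depleted (7 with the nontargeting mean), with a median of -4.32, led by *Cpox* (-6.74) and *Urod* (-6.04). Among 21 genes for coenzyme A, lipoate, biotin, NAD and FAD, 11 were depleted, but 6 with the nontargeting mean. *Coasy* (-5.70) and *Ppcs* (-5.62) make coenzyme A, and *Nampt* (-4.54 ± 0.93) salvages NAD. In the glutathione, thioredoxin and selenium list 5 of 24 were depleted (4 with the nontargeting mean). *Txnrd1*, cytosolic thioredoxin reductase, was at -5.17 and *Sepsecs*, needed to make selenocysteine, at -5.07. *Gpx4*, the selenoprotein that removes lipid peroxides, was at -2.67 ± 1.19 and did not pass (adjusted p = 0.121). The vacuolar proton ATPase, which acidifies lysosomes, had 14 of 24 genes depleted (13 with the nontargeting mean) and a median of -3.70, with *Atp6v0d1* (-6.59) and *Atp6v0c* (-6.50) lowest.

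Lipid lists had shares of depleted genes from none to above that of all genes. In mevalonate and cholesterol synthesis 8 of 22 were depleted (7 with the nontargeting mean). They included *Hmgcs1*, *Mvd*, *Mvk*, *Ggps1*, *Idi1*, *Pmvk* and *Fdps*, of the part that makes isoprenoids. The call for *Fdps* was lost with the nontargeting mean (adjusted p = 0.116), with the median over sgRNAs (0.13) and without lung IgG replicate 1 (0.0575), lung IgG replicate 3 (0.114) or T0 replicate 3 (0.0771). *Hmgcs1* fell from -0.18, -0.01 and 0.64 in T0 to -6.96, -7.27 and -4.41 in lung IgG, a change of -6.36 ± 0.94, and *Mvd* changed by -6.03. No enzyme from squalene synthesis onwards passed, with *Sqle*, the squalene epoxidase, at -2.23 ± 1.07. In sphingolipid metabolism 6 of 32 were depleted (4 with the nontargeting mean), a share near the 18% of all genes. They included *Sptlc1* and *Sptlc2*, the first enzyme of the route, *Kdsr* (-6.15), the second, and *Ugcg* (-5.85), which makes glucosylceramide. None of the 6 ceramide synthases passed.

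Fatty acid synthesis (0 of 8, median -1.62), fatty acid oxidation (0 of 20, median -1.13) and coenzyme Q synthesis (0 of 7, median -1.49) had no depleted gene. *Fasn* lay at -2.73 ± 1.19 and *Cpt1a*, the entry enzyme of mitochondrial fatty acid oxidation, at -2.27 ± 1.05. Of 12 genes of fatty acid elongation, *Elovl5* (-3.42) and *Elovl2* (-2.83), which elongate polyunsaturated fatty acids, were depleted. Neither passed with the nontargeting mean (adjusted p = 0.0687 and 0.231), and without lung IgG replicate 1 the adjusted p was 0.0548 for *Elovl5* and 0.122 for *Elovl2*. *Elovl2* also lost its call without each other library (adjusted p of up to 0.0972) except lung IgG replicate 3.

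*Elovl1*, which elongates saturated and monounsaturated very long-chain fatty acids, had levels of -0.06, -0.17 and -0.32 in T0 and of -1.84, -0.83 and -1.69 in lung IgG. The lung libraries lay below the T0 libraries, yet the change of -1.27 ± 0.89 was close to the median of all genes and did not pass (adjusted p = 0.333). With the nontargeting mean it was -0.08. Its 5 sgRNAs were uneven, with changes from -3.78 to 0.76, and 4 of 15 lung values lay at the lowest. In glycerophospholipid synthesis 6 of 30 were depleted (3 with the nontargeting mean), led by *Pisd* (-5.56), which makes phosphatidylethanolamine in mitochondria, and *Pgs1* (-4.88), on the path to cardiolipin. The 3 genes of ether lipid synthesis did not pass, with a median of 0.37 and 4.44% of values at the lowest. *Far1*, which makes their fatty alcohol, was at 0.76 ± 1.10.

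Among glycan lists other than the core 1 group described below, dolichol-linked assembly and sugar supply had the largest shares of depleted genes. Of 28 genes that build the dolichol-linked oligosaccharide and transfer it to protein, 17 were depleted under either centring, with a median of -4.14. *Alg2*, a mannosyltransferase of this route, stood at -0.11, 0.44 and 1.18 in T0 and at -7.11, -7.12 and -5.71 in lung IgG, a change of -7.15 ± 0.93 (adjusted p = 3.57e-08), and *Alg13* changed by -6.55. Supply of nucleotide sugars lost 11 of 16 genes (10 with the nontargeting mean), with a median of -4.03, led by *Gfpt1* (-6.49), the entry enzyme of the hexosamine pathway, and *Gne* (-6.23), the entry enzyme of sialic acid synthesis. Of 18 genes of N-glycan trimming and branching, 3 were depleted under either centring, *Mgat1* (-6.47), *Mogs* (-5.43) and *Ganab* (-5.16), all early steps. *Mgat5*, which adds a late branch, was at 0.49 ± 1.09 and did not pass. In poly-LacNAc extension *B4galt5* (-6.16) and *B4galt1* (-4.99) were depleted of 15. *B3gnt2*, which extends these chains, had levels of 0.78, 0.74 and 0.23 in T0 and of 1.60, 0.52 and 1.96 in lung IgG, which overlap, and its change was 0.78 ± 1.22 (adjusted p = 0.673).

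No gene was depleted among 22 of glycosylphosphatidylinositol anchor synthesis, whose median, -0.58, was the highest of the lists with 6 or more genes, or among 10 of GDP-fucose use. Of 34 genes of glycosaminoglycan synthesis, only *Hs3st1* was depleted, a call that was lost with the nontargeting mean (adjusted p = 0.109) and without each library (up to 0.42) except lung IgG replicate 3. A group formed after its values were seen holds 9 genes that build the core 1 O-glycan and its sialic acid. It shares *Gne*, *Nans* and *Cmas* with the list of nucleotide sugar supply. Of the 9 genes, 8 were depleted under either centring. Among them were *St3gal1* (-5.67), the sialyltransferase of core 1, *C1galt1c1* (-5.33), the chaperone of the core 1 enzyme, and *Slc35a1* (-5.35), which brings CMP-sialic acid into the Golgi. Other depleted genes outside the lists, also named after their values were seen, were *Copa* (-6.09), of the coat of Golgi vesicles, *Nup93* (-5.69), of the nuclear pore, *Slc19a1* (-5.66), the folate carrier, and *Dnmt1* (-5.62), the maintenance DNA methyltransferase. In all, 295 of the 375 depleted genes were in 1 of the 53 lists and 80 were in none.

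**Figure D4:**
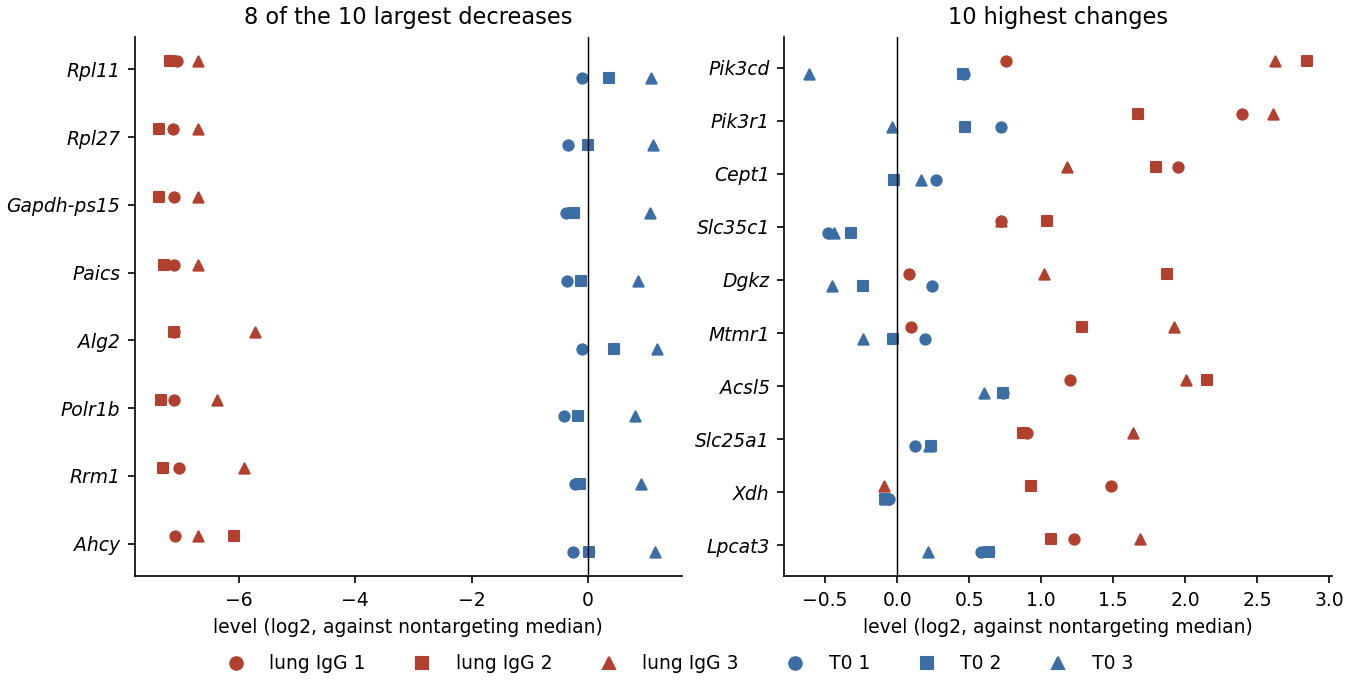
Levels (x axis, log2 against the nontargeting median) in each lung IgG (red) and T0 (blue) library of 8 of the 10 genes with the largest decreases that passed (left) and of the 10 with the highest changes, none of which passed (right). Marker shape gives the replicate number. On the left all lung values lie below -5.71 or at it and all T0 values above -0.42 or at it, and on the right the groups overlap for *Dgkz*, *Mtmr1* and *Xdh*.

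At the other end, the genes with the highest changes were led by PI3K. The 10 highest, given here although none passed, were *Pik3cd*, *Pik3r1*, *Cept1*, *Slc35c1*, *Dgkz*, *Mtmr1*, *Acsl5*, *Slc25a1*, *Xdh* and *Lpcat3*, from 1.97 down to 0.85. Every lung library lay above every T0 library in 21 of 2078 genes (1.01%) with the nontargeting median and in 233 (11.2%) with the nontargeting mean. The 21 included *Pik3cd*, *Pik3r1*, *Cept1*, *Slc35c1*, *Acsl5*, *Slc25a1* and *Lpcat3*. The 4 genes enriched with the nontargeting mean were *Pik3r1* (adjusted p = 0.00188), *Pik3cd* (0.00879), *Cept1* (0.0212) and *Dgkz* (0.0277). With that centring and 1 library left out in turn, *Pik3r1* passed in 6 of 6 fits, *Pik3cd* in 4, *Dgkz* in 3 and *Cept1* in 1. *Pik3cd* was lost without lung IgG replicate 2 or T0 replicate 3 (adjusted p of up to 0.0742). *Dgkz* was lost without either of these or T0 replicate 2 (up to 0.207), and *Cept1* passed only without lung IgG replicate 3 (up to 0.163 otherwise).

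*Pik3r1* encodes p85α, the regulatory subunit that binds and restrains the catalytic subunits of class I PI3K. Its levels were 0.72, 0.47 and -0.04 in T0 and 2.40, 1.68 and 2.61 in lung IgG, so the groups did not overlap. All 5 sgRNAs were higher in lung, by 0.89 to 3.40, and none of the 15 lung values was at the lowest. The change was 1.84 ± 0.87 against the nontargeting median (adjusted p = 0.145) and 3.03 ± 0.76 against the nontargeting mean. *Pik3cd* encodes p110δ, the catalytic subunit found mainly in leukocytes. It stood at 0.47, 0.46 and -0.61 in T0 and at 0.75, 2.85 and 2.62 in lung IgG, with replicate 1 closest to T0. In that library 1 of its sgRNAs was at the lowest value, the same sgRNA that was lower in lung (-0.64), while the other 4 were higher by 2.46 to 2.80. The change was 1.97 ± 1.14 (adjusted p = 0.249).

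Over the 12 measured subunits the list median was -0.84, above the -1.42 of all genes, and 19.4% of lung values were at the lowest. *Pik3c3*, the class III enzyme of endosomes and autophagy, was depleted at -3.57 ± 1.17 (adjusted p = 0.0221). It lost its call with the nontargeting mean (0.138) and without lung IgG replicate 1 (0.0989), lung IgG replicate 2 (0.0769), T0 replicate 2 (0.0731) or T0 replicate 3 (0.0689). The catalytic subunits *Pik3ca*, *Pik3cb* and *Pik3cg* had changes of -1.48, -2.09 and -2.10 and did not pass.

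Diacylglycerol kinases convert diacylglycerol, a messenger of the T cell receptor, into phosphatidic acid. *Dgkz*, a main form in T cells, had levels of 0.24, -0.23 and -0.46 in T0 and of 0.08, 1.87 and 1.02 in lung IgG. Lung replicate 1 lay within the T0 range, so the groups overlapped, and the change was 1.14 ± 0.96 (adjusted p = 0.427). Its sgRNAs ranged from -1.19 to 3.50, with 4 of 5 higher. *Dgka*, the other main form in T cells, was at -0.38, or at 0.80 with the nontargeting mean, and *Dgkg* was the only depleted kinase of the 10, at -3.61 ± 0.91, a call lost with the nontargeting mean (adjusted p = 0.0551). No gene was depleted among 13 of phospholipase C, which makes diacylglycerol. Of 48 other phosphoinositide and inositol phosphate enzymes 7 were depleted (4 with the nontargeting mean), led by *Cdipt* (-6.90), which makes phosphatidylinositol, *Inpp5k* (-5.54) and, further up, *Itpkb* (-4.59), a kinase of inositol trisphosphate. *Mtmr1*, a phosphoinositide phosphatase, had the highest change of that list, 1.12 ± 1.04.

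**Figure D5:**
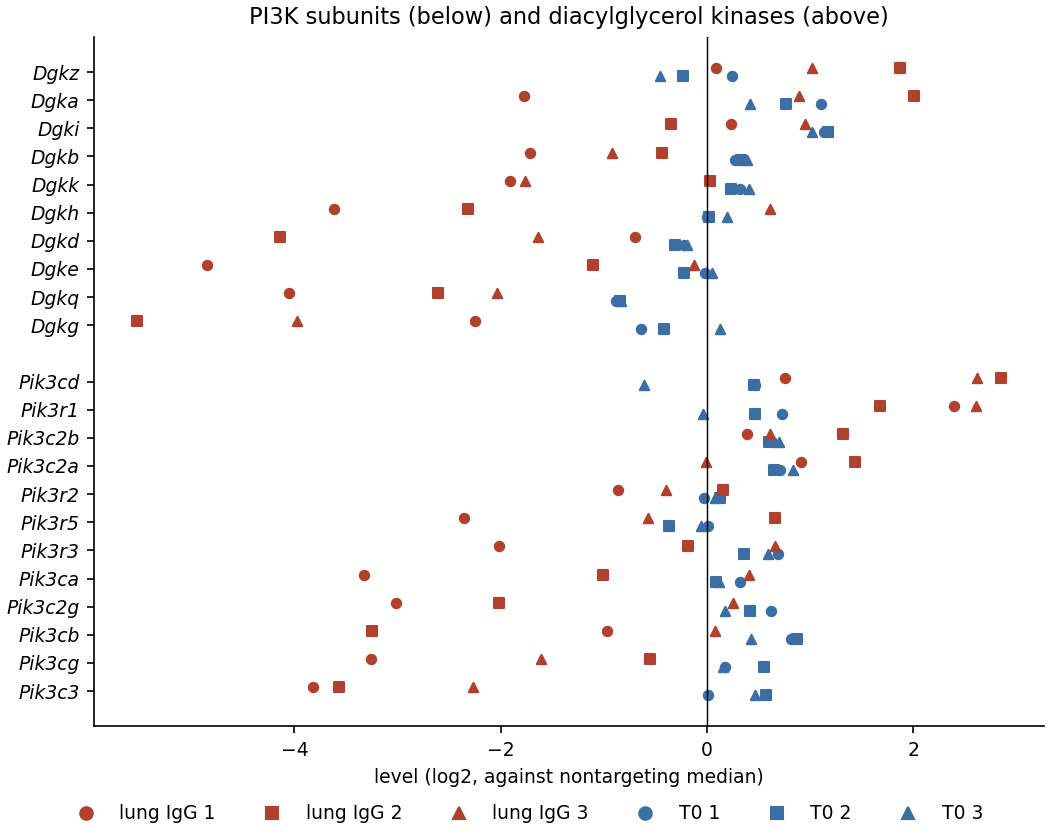
Levels (x axis, log2 against the nontargeting median) of the 12 PI3K subunits and 10 diacylglycerol kinases in each lung IgG (red) and T0 (blue) library, with marker shape for the replicate number. *Pik3r1* and *Pik3cd* are the subunits whose 3 lung libraries all lie above the 3 T0 libraries, and the lung values of most other members spread downwards.

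*Cept1*, which makes phosphatidylcholine and phosphatidylethanolamine from diacylglycerol, had levels of 0.27, -0.02 and 0.16 in T0 and of 1.95, 1.80 and 1.18 in lung IgG. The groups did not overlap, all 5 sgRNAs were higher by 0.25 to 2.49, and the change was 1.50 ± 0.96 (adjusted p = 0.292). *Slc35c1*, which carries GDP-fucose into the Golgi, stood at -0.48, -0.32 and -0.44 in T0 and at 0.72, 1.04 and 0.72 in lung IgG. It too had 5 of 5 sgRNAs higher and no value at the lowest, with a change of 1.24 ± 1.06 (adjusted p = 0.434, and 0.0598 with the nontargeting mean). *Acsl5*, a long-chain acyl-CoA synthetase, changed by 1.10, *Xdh*, xanthine dehydrogenase, by 0.85 and *Lpcat3*, which puts polyunsaturated fatty acids into phospholipids, by 0.85.

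Against 18% of all genes, the shares of depleted genes in large families of other enzymes varied. None of 42 cyclic nucleotide cyclases and phosphodiesterases was depleted (median -1.27). Among 80 cytochrome P450 genes 4 were depleted (median -1.32) and among 35 phospholipase A2 and eicosanoid enzymes 1 (median -0.88), and none of these passed with the nontargeting mean. Of 24 histone lysine methyltransferases 5 were depleted (4 with the nontargeting mean), a share near that of all genes, led by *Kmt5a* (-4.29) and *Setd1a* (-4.14 ± 1.16). The latter lost its call without lung IgG replicate 2 (adjusted p = 0.0778) and with the lowest 10% of sgRNAs left out (adjusted p = 0.243).

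A different sgRNA had the highest signal in each lung library. The sgRNA with the highest signal in lung IgG replicate 1, against *G6pc*, held 0.921% of that library, with a signal of 28257 there, 4151 in replicate 2 and 166 in replicate 3, against 275, 396 and 210 in T0. It was thus above T0 in 2 of 3 lung libraries. The highest of replicate 2, against *Pik3c2b*, had 17297 there but 303 in replicate 1 and 101 in replicate 3, and that of replicate 3, against *B4galt7*, had 12427 there but 400 in replicate 1 and 1560 in replicate 2. None of these genes passed. Over all genes, levels in pairs of lung libraries correlated with Pearson's r of 0.61 to 0.71, and over the 1703 genes that were not depleted with r of 0.17 to 0.24, a description over genes, which are not independent replicates. Across nontargeting sgRNAs, r was 0.27 to 0.32.

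Direct contrasts asked where lung under IgG differed from its nearest relatives, without T0 as a shared reference. Against lung under anti-PD-1, against primary tumour under IgG and against spleen under IgG, 0 genes (0%) passed by limma in each. These counts varied with the libraries in the fit. With only the compared groups in the fit, 0 genes passed in each contrast as well. The lymph node libraries had 48.6% to 91.6% of all sgRNAs at the lowest value. Without them, 26 genes were lower and 9 higher than in lung anti-PD-1, 86 were lower than in tumour and 29 lower than in spleen. At an unadjusted p under 0.05, 62 genes were lower and 33 higher than in lung anti-PD-1, 192 were lower and 0 higher than in tumour, and 149 were lower and 0 higher than in spleen. The medians of all genes in these contrasts, -0.24, -0.99 and -0.81, moved to 0.12, 0.09 and 0.03 with the nontargeting mean, and these counts then became 62 lower and 128 higher, 32 and 25, and 38 and 24. Missing sgRNAs were fewer in tumour and spleen. The share of gene-targeting sgRNAs at the lowest value was 2.83% to 3.99% in tumour IgG and 5.17% to 13% in spleen IgG. In lung anti-PD-1 the shares in replicates 1, 2 and 3 were 17.9%, 30.4% and 10.8%, against 42.7%, 28.1% and 11.5% in lung IgG.

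*Slc35c1* differed most between the 2 lung groups. It stood at 0.72, 1.04 and 0.72 under IgG and at -2.19, -5.40 and -4.01 under anti-PD-1, with no overlap. The difference was 4.69 ± 1.06 (adjusted p = 0.105), 5.06 with the nontargeting mean (adjusted p = 0.000804, the 1 gene that passed there) and 5.53 without lung anti-PD-1 replicate 1 (adjusted p = 0.0396). *Sdhd* (3.18) and *Inpp5d* (3.03), which encodes the phosphatase SHIP1, came next. *Ak9* (-3.38), *Ndufa7* (-3.31) and *Plcl1* (-3.06) were lowest. From *Sdhd* to *Plcl1* the adjusted p was 0.91 or more in the main fit. With the nontargeting mean and no lymph node libraries, an alternative chosen after seeing the data, each of them passed (adjusted p from 0.00583 to 0.0233).

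Against tumour the lowest genes were *Rimklb* (-4.29), *Ndufs3* (-4.22, both adjusted p = 0.0707) and *St3gal1* (-3.79). *Ndufs3* was at -6.74, -7.04 and -4.56 in lung and at -1.64, -2.53 and -1.52 in tumour. Without lung IgG replicate 3, *Rimklb*, *Ndufs3*, *St3gal1*, *Sphk2* and *Plcl1* passed (adjusted p from 0.0219 to 0.0362). The highest were *Slc25a1* (1.29), *Far1* (1.12) and *Msmo1* (1.07). Against spleen *Rpn2*, a subunit of the oligosaccharyltransferase, was lowest at -4.28 ± 0.94 (adjusted p = 0.0728), with -6.56, -5.77 and -4.10 in lung and -0.43, -0.85 and -2.32 in spleen. It passed with the replicate number as a block (adjusted p = 0.0404) and without lung IgG replicate 3 (0.0334). *Pgk1* (-4.11) and *Pkm* (-3.89) followed, and *Far1* (1.87), *Gm5560* (1.46) and *Blvrb* (1.45) were highest.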

How the data were processed

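The authors sequenced sgRNAs from sorted OT-I cells in 3 independent runs, counted them with MAGeCK-VISPR 0.5.3, scaled them to the nontargeting sgRNAs and ran ComBat for batch effects, which the methods describe as between organs. How far this altered differences between organs is not stated. The deposited values are such batch-corrected signal per sgRNA and library, not whole numbers, so no count model was used and depth is unknown. Their sums ran from 1788300 to 4228882 over the lung IgG and T0 libraries. Of 43 samples in the labels, 41 had values. A metastasis library whose tissue label names spleen was used by its title.

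Each value was taken as log2(signal + 1), averaged over 5 sgRNAs and centred on the nontargeting median. limma 3.58.1 (R 4.3.3) fitted 1 mean per group over all 41 libraries, with Benjamini-Hochberg adjustment over 2078 genes at 0.05. The fit was also run on simulated data, centred on the nontargeting mean and not on the median. That run did not test the median centring, and its outcome is not reported here. Values at the lowest were found within each replicate number (relative tolerance 1e-09). Named genes were the 10 largest changes in each direction that passed, separated all libraries and held in at least 4 sgRNAs (where fewer than 10 passed, the 10 largest whether or not they passed), in each list the 2 largest decreases that passed, the highest change and members needed to follow the list, 7 genes that the study names, and the 3 largest differences per direction in each direct contrast. Some genes that these rules name are not reported here. Further glycolysis, mevalonate, PI3K and direct-contrast genes were named after their values were seen. The members and lists were chosen with earlier results of these data known. For lung and spleen IgG, same-numbered libraries deviated together (r of 0.12, 0.19 and 0.18). The labels give the replicate numbers but do not say whether same-numbered libraries are paired. This possible pairing was therefore read from the data, and the main fit did not use it. Alternatives covered pseudocount, centring, filters, lowest values, libraries, weights and the replicate block.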

Additional observations from a re-analysis of the deposited data

Results flagged for a closer look

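Only genes named in the text, not all genes of the library, were searched for opposite sides of T0 in the lung groups. For *Slc35c1*, *Ak9* and *Blvrb*, every lung IgG library lay on one side of all T0 libraries and every lung anti-PD-1 library on the other. These genes had been named as extremes of direct contrasts. The share of all genes with this pattern was not counted. The T0 levels of *Slc35c1* were -0.48, -0.32 and -0.44, all below lung IgG (0.72, 1.04 and 0.72) and above lung anti-PD-1 (-2.19, -5.40 and -4.01), and the direct difference was 4.69 (adjusted p = 0.105). *Ak9*, an adenylate kinase, stood at 0.24, 0.05 and -0.01 in T0, at -4.90, -2.84 and -0.38 under IgG and at 0.53, 0.29 and 1.20 under anti-PD-1, a difference of -3.38 (adjusted p = 0.93). *Blvrb*, biliverdin reductase B, stood at 0.76, 0.65 and 0.70 in T0, at 1.26, 1.57 and 1.17 under IgG and at -0.32, -0.13 and 0.53 under anti-PD-1, a difference of 1.31 (adjusted p = 0.934). With the nontargeting mean the direct difference passed for *Slc35c1* and not for *Ak9* (adjusted p = 0.21) or *Blvrb* (adjusted p = 0.455). With lymph node libraries also left out, *Ak9* passed (adjusted p = 0.00722).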

How the results depend on the processing

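Against T0, depleted genes numbered 990 without centring, 794 without lymph node libraries, 640 with library weights and 0 with values at the lowest left out, and 304 to 485 with 1 library left out. Enriched genes numbered 1 with log2(signal + 10), with the 6 compared libraries alone and with library weights (*Pik3r1* each time), 3 without lymph nodes (*Pik3r1*, *Pik3cd* and *Cept1*) and 4 with the nontargeting mean. With the nontargeting mean, enriched genes were 1 to 12 with 1 library left out, and, in alternatives chosen after seeing the data, 35 without lymph nodes and 17 with the compared libraries alone. In the direct contrasts, leaving out lymph nodes gave 26 lower and 9 higher genes against lung anti-PD-1. It gave 86 lower genes against tumour and 29 lower against spleen. Together with the nontargeting mean, these became 25 and 49 against lung anti-PD-1, 0 against tumour and 2 lower (*Rpn2* and *Pgk1*) against spleen. With the compared groups alone, 0 genes passed in each contrast. *Slc35c1* was the 1 gene higher than in lung anti-PD-1 with log2(signal + 10) and with the nontargeting mean. With 1 library left out these contrasts gave 0 to 1 higher gene against lung anti-PD-1, 0 to 5 lower against tumour and 0 to 1 lower against spleen.

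The replicate number as a block gave 400 depleted genes against T0, 2 genes lower than in tumour (*Rimklb* and *Ndufs3*, adjusted p = 0.0376), 1 lower than in spleen and 0 against lung anti-PD-1. Deviations from the group means in same-numbered libraries had r of -0.21, -0.22 and -0.07 for lung IgG and T0. They had r of -0.11, -0.01 and -0.07 for lung anti-PD-1, and of 0.04, 0.11 and 0.15 for tumour. The tumour values were positive, as those for spleen were, and no cutoff on r was set. The main fit used no pairing in any contrast.

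None of these genes passed where the sign turned. Without centring the sign turned for *CYTB* (-0.11), *Mdh2* (-0.107), *Shmt1* (-0.397), *Mgat5* (-0.262), *Aldoc* (-0.613), *Blvrb* (-0.121), *Pgam2* (-0.508) and *Pik3c2b* (-0.622). With values at the lowest left out it turned for *Elovl1* (0.0329), *Sdhb* (1.18), *Slc2a1* (0.439), *Mgat5* (-0.0233), *Cpt1a* (1.04), *Fasn* (0.0887), *Eno1b* (0.164), *Eno3* (0.785), *G6pc* (0.405) and *Pik3cb* (0.234). With the nontargeting mean, also without lymph nodes or with the compared libraries alone, it turned for *Adssl1* (0.276), *B4galt7* (0.688), *Dgka* (0.803), *Eno2* (0.626), *Eno3* (0.558), *G6pc* (0.561), *Hk3* (0.538) and *Ldhc* (0.71). *Dgka* was at 0.482 with the median over sgRNAs and at 0.0432 with centring on all sgRNAs, and *Pik3c2b* at -0.0474 with the lowest values set to 0. With 1 library left out the sign varied for *Aldoc* (-0.0838 to 0.49), *B4galt7* (-1.20 to 0.66), *Dgka* (-1.20 to 0.69), *Eno3* (-1.07 to 0.22), *Hk3* (-1.75 to 0.10), *Ldhc* (-1.28 to 0.00746), *Pgam2* (-0.15 to 0.89) and *Pik3c2b* (-0.15 to 0.32). The causes were not tested.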
